A study of Rattus norvegicus and Mus musculus with 251 samples.

Results

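The genes described here are 9 mouse transcripts that mark tissue next to the prefrontal cortex (PFC) and the nucleus accumbens (NAc): the choroid plexus genes Ttr, Folr1, Kl, Clic6 and Kcne2, and the hypothalamic peptide genes Pmch, Hcrt, Oxt and Avp. They were chosen by name, as genes whose reads would show that a punch of brain tissue held some of its neighbours, and they are 9 of 46078 gene rows in the mouse count table. RNA came from small tissue cores, 0.5 mm wide, of brain sections from C57BL6J mice of both sexes, and total RNA was sequenced in pairs of 75 bp reads. The mice drank either a saline or a morphine solution, and the morphine groups are chronic morphine, with no interval in the label, morphine followed by 24 h, and morphine followed by 2 weeks. No genotype other than the strain, no dose and no age is given in the sources used here. The PFC was represented by 30 libraries: 6 from saline mice (3 female and 3 male), 8 from chronic morphine (3 female, 5 male), 9 from morphine plus 24 h (4 female, 5 male) and 7 from morphine plus 2 weeks (3 female, 4 male). The NAc was represented by 32 libraries: 7 from saline mice (3 female, 4 male), 8 from chronic morphine (3 female, 5 male), 9 from morphine plus 24 h (4 female, 5 male) and 8 from morphine plus 2 weeks (3 female, 5 male). The labels do not say whether a library came from 1 animal or several, nor whether libraries with the same number in the PFC and the NAc came from the same mouse, so the p-values below measure the spread between these libraries. These 62 libraries are the mouse part of 251, and the rat libraries were not analysed here.

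The choroid plexus is the folded, vascular epithelium inside the ventricles that makes cerebrospinal fluid. Its cells produce transthyretin (Ttr), a carrier of thyroid hormone and of the retinol-binding protein, in very large amounts, together with the folate receptor Folr1, the ageing-related co-receptor and hormone klotho (Kl), the chloride channel family member Clic6 and the potassium channel subunit Kcne2. Pmch encodes the precursor of melanin-concentrating hormone and Hcrt that of the orexins (hypocretins), peptides of separate neurons that lie side by side in the lateral hypothalamus and act on feeding and wakefulness. Oxt and Avp encode the precursors of oxytocin and vasopressin, which are made by large neurons of the paraventricular and supraoptic nuclei. Vasopressin is also made in smaller neurons of the extended amygdala, and the supraoptic and preoptic regions lie behind and below the accumbens along the brain's axis.

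In the GENCODE annotation of GRCm38 all 9 are protein-coding genes. The count table lists them by Ensembl gene identifier, which the annotation pairs with the symbols: ENSMUSG00000061808 is Ttr, ENSMUSG00000001827 Folr1, ENSMUSG00000058488 Kl, ENSMUSG00000022949 Clic6, ENSMUSG00000039672 Kcne2, ENSMUSG00000035383 Pmch, ENSMUSG00000045471 Hcrt, ENSMUSG00000027301 Oxt and ENSMUSG00000037727 Avp. Folr1 lies at chr7:101858331-101870788 on the minus strand, Kl at chr5:150952607-150993817 on the plus strand, Clic6 at chr16:92485736-92541243 and Kcne2 at chr16:92292389-92298129, both on the plus strand. Pmch lies at chr10:88091072-88092375 on the plus strand and Hcrt at chr11:100761069-100762931 on the minus strand. Oxt (chr2:130576173-130577054, plus strand) and Avp (chr2:130580620-130582554, minus strand) are neighbours that are transcribed towards each other, with 3565 bases between them. Their middle exons, exon 2 of 3 in each gene, are entirely coding and belong to the neurophysin part of the precursors. They are shown because reads from this stretch decide how well the counts of the 2 genes can be kept apart. The sequences are the transcript strand, 5′ to 3′, of the annotated transcripts, and capitals mark the bases that differ between the genes.
Oxt exon 2, chr2:130576591-130576792 (+): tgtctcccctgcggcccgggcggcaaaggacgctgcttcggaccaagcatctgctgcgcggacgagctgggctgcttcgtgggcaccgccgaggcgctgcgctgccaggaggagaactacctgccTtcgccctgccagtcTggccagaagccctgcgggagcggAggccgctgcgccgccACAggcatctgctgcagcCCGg
Avp exon 2, chr2:130581056-130581257 (-): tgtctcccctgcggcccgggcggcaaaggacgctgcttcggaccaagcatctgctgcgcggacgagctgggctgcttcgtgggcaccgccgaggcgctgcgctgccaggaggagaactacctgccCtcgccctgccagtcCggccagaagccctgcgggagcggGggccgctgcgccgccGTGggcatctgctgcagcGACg
Each exon is 202 bases long. The 2 exons differ at 9 bases and are identical at 193, or 95.5%. Of the 463 windows of 75 bases in the Oxt transcript, 53 (11.4%) also occur in the Avp transcript, and those 53 are 10.5% of the 503 windows of Avp. The other windows tell the genes apart.

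No window of 75 bases of Ttr, Folr1, Clic6, Kcne2 or Hcrt occurs in a transcript of another gene on either strand. In Kl, 36 of 9252 windows (0.389%) are shared on the same strand and 34 (0.367%) on the opposite strand. Pmch has another kind of overlap: 435 of its 749 exon bases, and 246 of its 495 coding bases, lie opposite exons of Parpbp, a gene transcribed from the other strand. Whether the counts were made with regard to strand is not given in the sources used here, so small numbers of Pmch reads could belong to Parpbp. Parpbp itself was read 13 to 55 times (median 25) in the 6 NAc libraries that were highest in Pmch and 0 to 26 times (median 8) in the other 26.

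Total counts ranged from 24936879 to 41532464 in the PFC, with a single exception, and from 22387525 to 43963295 in the NAc. The exception was PFC number 10 (female, morphine plus 2 weeks), with 5182601 counts, in which 7456 of the 17966 genes tested in the PFC (41.5%) had no read, against a median of 414.5 such genes per PFC library and 979 in the next library. Reads listed as not aligned made up 21.1% of all counts in that library and at most 1.92% in any other PFC library. The regions were told apart by their defining genes. The cortical glutamate transporter Slc17a7 stood at 1428 to 3680 CPM in the PFC and at 3.03 to 594 CPM in the NAc, where CPM is the count scaled to the library's total after TMM normalization. The highest NAc value was in number 24, and the next was 66.6 CPM. The dopamine receptor gene Drd1, a mark of striatal neurons, stood at 0 to 9.27 CPM in the PFC and at 9.03 to 290 in the NAc. The lowest Drd1 among libraries labelled NAc was in number 6 (9.03 CPM) and the next in number 25 (11.4 CPM), against a median of 123.6, so these 2 libraries were near the PFC range. The summed level of 10 striatal neuron genes was also lowest there, at 512 CPM in number 6 and 581 in number 25, against a NAc median of 4050 and a PFC range of 289 to 474. The cell type label of all mouse libraries is neuron, whereas these punches also held the non-neuronal genes described below. The region differences of Pmch and Hcrt are also given without each of these 2 libraries. Those of all 4 peptide genes are given without 6 NAc libraries that include them. Some correlations of Clic6, Oxt and Avp are given without both. In bulk tissue, fewer cells of a type and less RNA per cell cannot be told apart.

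In the PFC, Ttr varied more than Folr1, Kl and Clic6, with a standard deviation of 2.52 on the log2 CPM scale, and in the NAc its standard deviation, 1.62, was that of Folr1. Ttr stood in the PFC at 0.968 to 134.4 CPM in saline libraries (median 2.70), at 0.689 to 3141 after chronic morphine (median 3.67), at 0.458 to 6.74 after morphine plus 24 h (median 4.35) and at 0 to 12.6 after morphine plus 2 weeks (median 3.66). The 4 medians lie close together, and the chronic morphine and saline ranges are each stretched upward by a single library. That of the chronic group is PFC number 31, a male, with 96324 Ttr reads, or 849 times the PFC median. The saline library is PFC number 3, a female, with 4441 reads and 134.4 CPM. The 1 library without any Ttr read was the shallow PFC number 10, where 0 reads allow up to 0.579 CPM (3 reads of its total, counting error only).

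PFC number 31 was the highest PFC library for all 5 choroid plexus genes. Folr1, which takes up folate for transfer into the cerebrospinal fluid, reached 33.8 CPM (1036 reads) there, against 1.88 CPM in PFC number 3 and a median of 0.0603. Kl reached 143.2 CPM (4392 reads), against 12.2 in PFC number 3 and a median of 4.35. Clic6 reached 107.7 CPM (3303 reads), against 6.90 in PFC number 3 and a median of 0.729. Kcne2, which assembles with potassium channels of the epithelium, reached 22.8 CPM (700 reads), against 0.289 in the next library, and had no read in 18 of the 30 PFC libraries. PFC number 3 thus came second for Ttr, Folr1, Kl and Clic6 but not for Kcne2, for which it held 5 reads.

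Folr1 kept a like proportion to Ttr in PFC numbers 31 and 3, whereas Kl, Clic6 and Kcne2 did not. Per 100 Ttr reads, PFC number 31 held 1.08 Folr1 reads (exact 95% binomial interval 1.01 to 1.14, counting error only) and PFC number 3 held 1.40 (1.07 to 1.79), so these intervals overlap. For Kcne2 the numbers were 0.727 (0.674 to 0.783) in PFC number 31 and 0.113 (0.0365 to 0.263) in PFC number 3, which do not overlap. Kl stood at 4.56 (4.42 to 4.70) per 100 Ttr reads in PFC number 31 and 9.10 (8.20 to 10.1) in PFC number 3, and Clic6 at 3.43 (3.31 to 3.55) and 5.13 (4.47 to 5.87), so both had the higher share in number 3. These shares include any reads not tied to Ttr. The median count over all PFC libraries was 130.5 for Kl and 24 for Clic6.

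**Figure D1:**
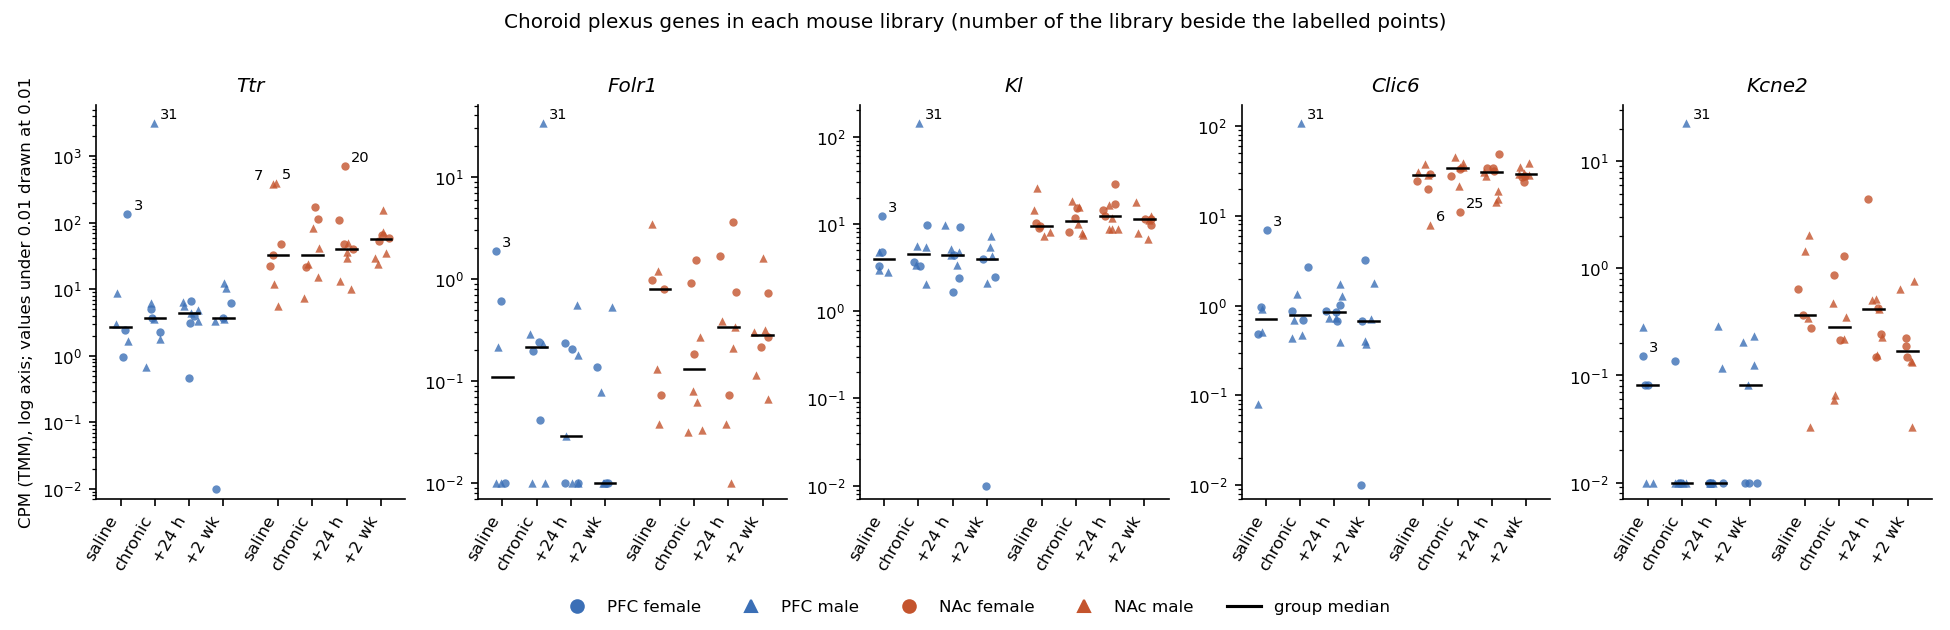
Level of the 5 choroid plexus genes in each mouse library, in CPM on a log axis, by region and stage; circles are female and triangles male libraries, and black lines are group medians. PFC number 31 lies above every other PFC library in all 5 panels, at 3141 CPM for Ttr, and Clic6 separates the NAc from the PFC apart from that library.

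Other choroid plexus genes were high in the same PFC library. Of 29 further genes of the tissue in the table, 22 passed the low-count filter in the PFC, and 20 of those 22 were highest in PFC number 31, where 6.08% of all 17966 tested genes were highest. Their summed level was 3832 CPM in that library and 562 to 836 CPM in the others. Most of that sum was Enpp2, the gene of the secreted enzyme autotaxin, at 2591 CPM against a median of 250. The water channel gene Aqp1 stood at 28.8 CPM against 2.15 in PFC number 3, and Kcnj13, a potassium channel of the epithelium, at 38.2 against 2.48 in the next library. Genes of ciliated ependymal cells, which line the ventricles, summed to 221 CPM in PFC number 31, the highest value, with 159.01 in the next, and 7 of the 12 tested were highest there. Meningeal genes summed to 298 CPM, the third rank of 30. Cortical neuron genes summed to 3999 CPM there, the second rank, so cortical genes were not low in that library. The part of neighbouring tissue in these levels was not tested.

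In the NAc, Ttr was present in every library, from 5.69 CPM in number 6 to 702 CPM (26857 reads) in number 20. It stood at 5.69 to 393 CPM in saline libraries (median 32.4), at 7.42 to 173.4 after chronic morphine (median 33.1), at 10.2 to 702 after morphine plus 24 h (median 40.8) and at 23.7 to 156.04 after morphine plus 2 weeks (median 56.5). The ranges of all 4 groups overlap, and the order of the medians stands within their spread. The highest 3 libraries were number 20 (702 CPM, female, morphine plus 24 h) and numbers 5 and 7 (393 and 378 CPM, saline males), and the next was number 27 at 173.4 CPM.

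Folr1 and Kcne2 were low in the NAc, and Kl was moderate. Folr1 stood at 0 to 3.61 CPM (median 0.269), and its highest libraries were number 20 at 3.61 and number 7 at 3.47. Kcne2 stood at 0.0327 to 4.44 CPM (median 0.310), highest in number 20, with number 5 next at 2.06. Kl stood at 6.72 to 28.3 CPM (median 11.2), again highest in number 20, with number 7 next at 26.03. The group medians of Folr1 were 0.797 CPM in saline, 0.132 after chronic morphine, 0.337 after morphine plus 24 h and 0.286 after morphine plus 2 weeks. Those of Kcne2 were 0.364, 0.286, 0.417 and 0.169 CPM and those of Kl 9.43, 10.8, 12.4 and 11.2 CPM in the same order. The ranges of the groups overlap for all 3 genes. The further choroid plexus genes summed to 618 to 1010 CPM in the NAc (median 722), and 14 of the 27 tested were highest in number 20, where 3.66% of all tested genes were highest. Enpp2 alone gave 429 of the 1010 CPM in number 20. Of the 5 NAc libraries highest in Ttr, 4 were also among the 5 highest in Folr1 (numbers 7, 12, 20 and 27), 4 in Kcne2 (5, 7, 20 and 27) and 3 in Kl (7, 12 and 20).

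Across the 32 NAc libraries these genes varied together on the log2 CPM scale. Ttr and Folr1 gave Pearson r = 0.82 (permutation p adjusted over 31 pairs = 0.000103) and Spearman rho = 0.76 (adjusted p = 0.00031), and r was 0.78 without numbers 20 and 5, the 2 libraries farthest from the Ttr median. Ttr and Kcne2 gave r = 0.80 (adjusted permutation p = 0.000103) and rho = 0.68, and r = 0.69 without the same 2. Ttr and Kl gave r = 0.76 (adjusted permutation p = 0.000103) and rho = 0.70, and r = 0.71 without them. The raw p behind these 3 values, 1e-05, is the smallest that 100000 permutations can give. Folr1 and Kl gave r = 0.56 (adjusted permutation p = 0.00256), which became 0.34 (adjusted p = 0.172) without numbers 20 and 7, so that relation rests on them. Folr1 with Kcne2 went from r = 0.59 (adjusted permutation p = 0.00102) to 0.43 (adjusted p = 0.0669), and Kl with Kcne2 from 0.66 (0.000258) to 0.48 (0.0370), without those 2.

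In the PFC all 6 pairs among Ttr, Folr1, Kl and Clic6 had an r between 0.58 and 0.86, and most of this came from PFC number 31 with number 10 or number 3. Without the 2 farthest libraries, Ttr and Clic6 kept r = 0.58 (adjusted permutation p = 0.0199), with rho = 0.60 over all 30 (adjusted p = 0.00269), whereas Ttr with Kl went from 0.81 to 0.38 (adjusted p = 0.133) and Kl with Clic6 from 0.79 to 0.37 (adjusted p = 0.141).

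**Figure D2:**
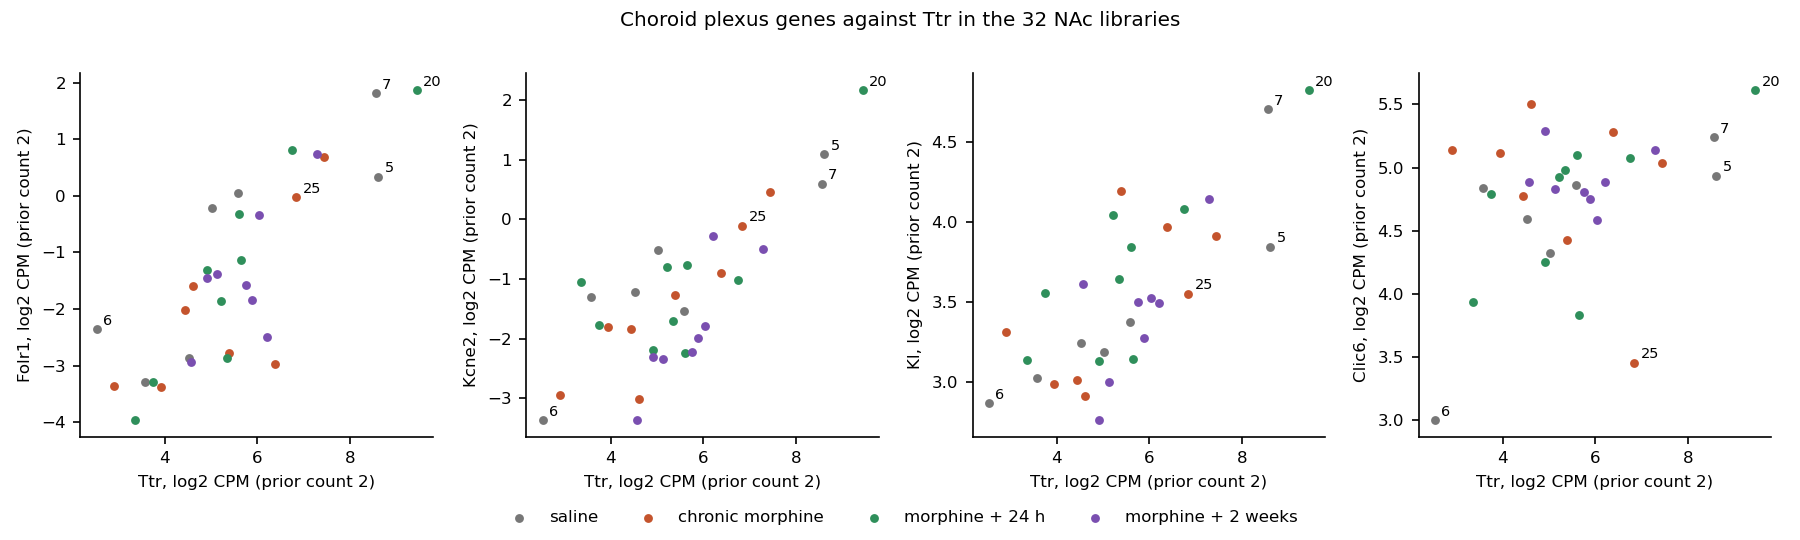
Folr1, Kcne2, Kl and Clic6 against Ttr in the 32 NAc libraries, in log2 CPM with a prior count of 2; each point is a library, coloured by stage. Numbers 5, 7 and 20 stand at the top for Ttr, Folr1, Kcne2 and Kl move with it (r = 0.82, 0.80 and 0.76), and Clic6 lies in a band with numbers 6 and 25 below it.

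The genes whose pattern was most like that of Ttr in the NAc, over 32 libraries, were Kcnj13 (r = 0.90, rho = 0.84), 1500015O10Rik (r = 0.88), Aqp1 (r = 0.88), Mfrp (r = 0.83) and Folr1 itself. 1500015O10Rik is the annotation's symbol for the gene of the secreted peptide augurin, also called Ecrg4. For Kcne2 they were Slc4a5 (r = 0.81), a bicarbonate transporter of the epithelium, then Ttr, Aqp1, 1500015O10Rik and Kcnj13. For Kl they were Ttr, Aqp1, Slc4a5, Mfrp and the coagulation factor gene F5 (r = 0.70), and for Folr1 Ttr, 1500015O10Rik, Tc2n, Kcnj13 and Msx1 (r = 0.74). In the PFC the 5 genes most like Ttr were Clic6 (r = 0.86), Enpp2 (r = 0.86), Mfrp (r = 0.83), Kl and Aqp1. Their rho were 0.60 for Clic6, 0.26 for Enpp2, 0.54 for Mfrp, 0.38 for Kl and 0.35 for Aqp1.

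Clic6 followed the other choroid plexus genes less closely in the NAc. It was even, at 7.95 to 48.98 CPM with a median of 29.3, and the highest library was 1.67 times the median, against 16.97 times for Ttr. Group medians were 28.6 CPM in saline, 33.7 after chronic morphine, 30.4 after morphine plus 24 h and 28.9 after morphine plus 2 weeks. Every NAc library stood above the second highest PFC library. Its r with Ttr over the 32 libraries was 0.37 (adjusted permutation p = 0.0753), and 0.28 without numbers 20 and 5. With each stage and sex group centred on its mean, that r was 0.41 (adjusted permutation p = 0.0408). Numbers 7 and 20 were among the 5 highest for both Clic6 and Ttr. Among the 5 genes most like Clic6 were March4 (r = 0.90), Ppp1r1b (r = 0.89), Cbr3 (r = 0.88) and Rarb (r = 0.88). Without numbers 6 and 25 these r were 0.84, 0.76, 0.79 and 0.78. Ppp1r1b encodes DARPP-32, the dopamine-regulated phosphatase inhibitor of striatal spiny neurons. Clic6 was lowest in numbers 6 (7.95 CPM), 25 (10.9), 23 (14.2) and 22 (15.3). The summed striatal list was lowest in numbers 6, 25, 2, 23 and 22, at 512, 581, 1134, 1259 and 2115 CPM.

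**Figure D3:**
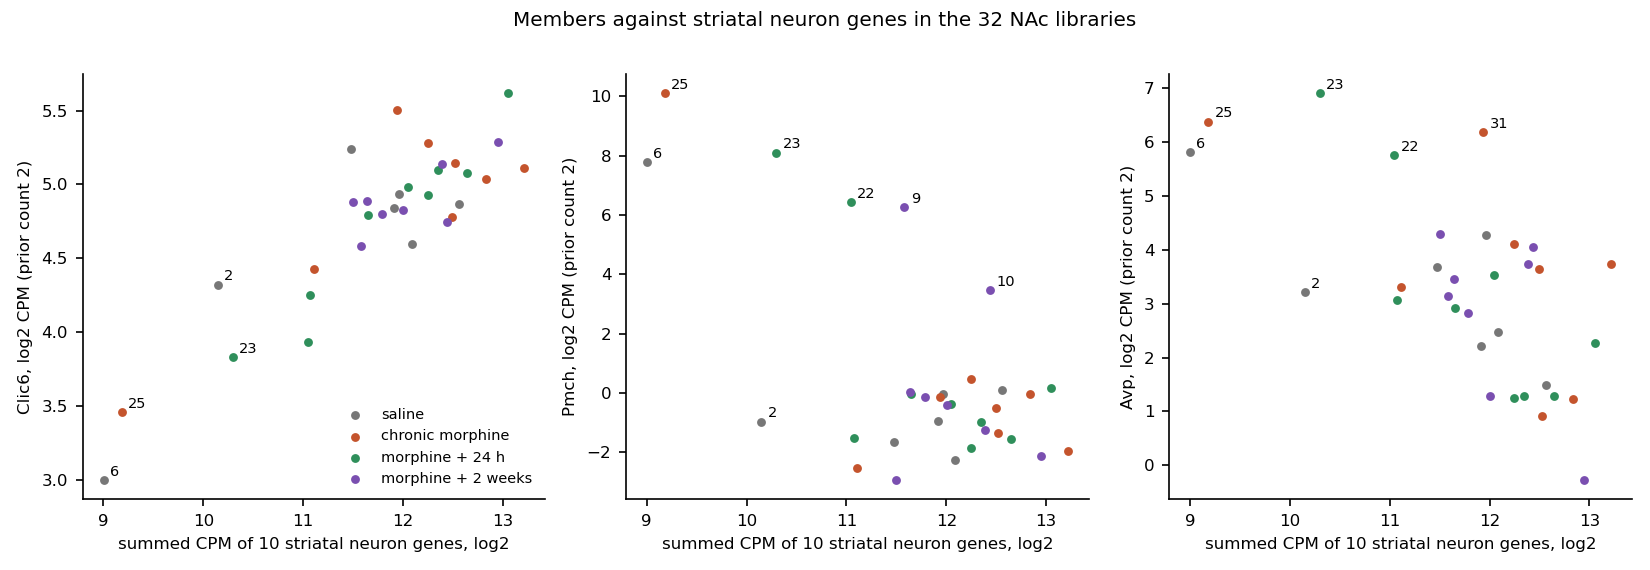
Clic6, Pmch and Avp (log2 CPM, prior count 2) against the log2 summed CPM of 10 striatal neuron genes in the 32 NAc libraries, coloured by stage. Clic6 is lowest where the striatal genes are lowest (numbers 6 and 25), and 4 of the 6 libraries highest in Pmch (6, 22, 23 and 25) are among the 5 lowest in the striatal sum.

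Pmch split the NAc libraries into separate levels. It stood at 0.146 to 222 CPM in saline libraries (median 0.455), at 0.108 to 1100 after chronic morphine (median 0.738), at 0.211 to 275 after morphine plus 24 h (median 0.701) and at 0.0667 to 76.9 after morphine plus 2 weeks (median 0.765). The group medians are all under 1 CPM, and the upper ends come from 6 libraries. These were number 25 (38181 reads, 1100 CPM), number 23 (12666 reads, 275 CPM), number 6 (6776 reads, 222 CPM), number 22 (2724 reads, 87.3 CPM), number 9 (2738 reads, 76.9 CPM) and number 10 (407 reads, 10.97 CPM). The other 26 libraries held 2 to 42 reads, with a median of 13, and a gap of 3.00 on the log2 CPM scale lay between the levels.

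The 6 libraries were spread over the study's groups. Number 6 was a saline male, number 25 a chronic morphine female, numbers 22 and 23 morphine plus 24 h males, and numbers 9 and 10 morphine plus 2 weeks females. Each of the 4 stages and both sexes therefore held at least 1 of them, and no stage held more than 2.

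Hcrt was highest in the same libraries. It stood at 335 CPM (11607 reads) in number 25, 94.7 (2894 reads) in number 6, 31.6 (1453 reads) in number 23, 14.3 (445 reads) in number 22 and 3.88 in number 9, followed by number 5 at 1.78 CPM (62 reads) and number 3 at 0.668 (24 reads). Of the 32 NAc libraries 10 had no Hcrt read, and the median was 3 reads. The group medians were 0.0840 CPM in saline, 0.109 after chronic morphine, 0.193 after morphine plus 24 h and 0.0296 after morphine plus 2 weeks. The 5 highest libraries for Pmch and for Hcrt were the same 5 (6, 9, 22, 23 and 25). Because the libraries fall into separate levels, no correlation over all 32 was tested; by the rule for most alike genes, Hcrt was the gene most like Pmch among 18382 (r = 0.93, rho = 0.79), and Cngb3, Mup6 and Asb13 were also among the 5 most alike.

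The balance of Hcrt to Pmch was not the same in these libraries. Per 100 Pmch reads there were 42.7 Hcrt reads (exact 95% interval 40.9 to 44.6) in number 6, 30.4 (29.8 to 31.04) in number 25, 16.3 (14.7 to 18.1) in number 22, 11.5 (10.9 to 12.1) in number 23, 5.04 (4.22 to 5.98) in number 9 and 1.47 (0.538 to 3.24) in number 10. No 2 of these 6 intervals overlap.

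**Figure D4:**
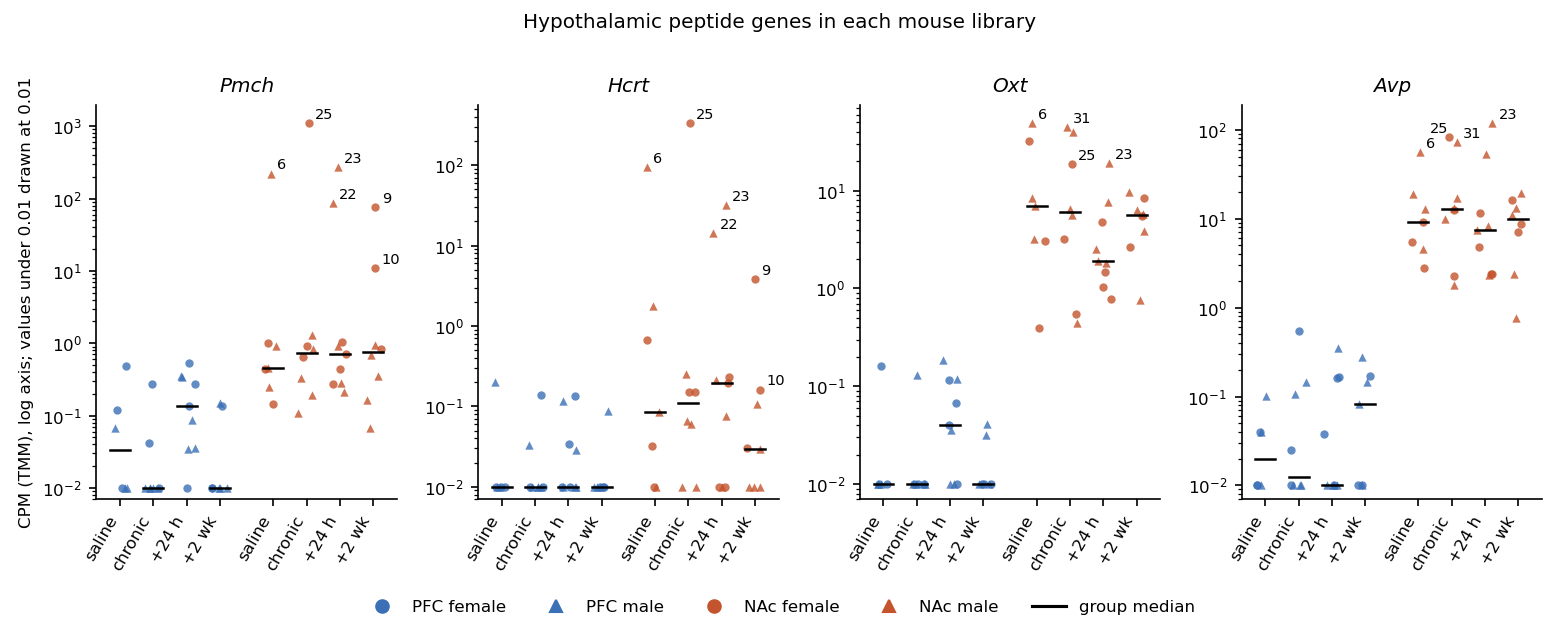
Level of Pmch, Hcrt, Oxt and Avp in each mouse library, in CPM on a log axis with values under 0.01 drawn at 0.01, by region and stage; circles are female and triangles male libraries, and black lines are group medians. In the NAc, Pmch and Hcrt are low in most libraries and high in a few numbered ones from every stage, whereas every NAc library lies above every PFC library for Oxt and Avp.

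Oxt and Avp were present in every NAc library and nearly absent from the PFC. Over all 30 PFC libraries Oxt was read 27 times and Avp 72 times, at most 6 and 16 times in a library. Over the 32 NAc libraries Oxt was read 10478 times and Avp 21975 times. The lowest NAc library stood above the highest PFC library for both, at 0.390 against 0.184 CPM for Oxt and 0.767 against 0.549 CPM for Avp. In CPM per kilobase of exon, the scale on which levels of different genes may be compared, the NAc medians were 34.9 for Ttr, 16.6 for Avp, 9.54 for Oxt, 7.48 for Clic6, 1.21 for Kl and 0.928 for Pmch.

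In the NAc, Oxt stood at 0.390 to 49.2 CPM in saline libraries (median 7.04), at 0.443 to 44.5 after chronic morphine (median 6.05), at 0.783 to 19.3 after morphine plus 24 h (median 1.91) and at 0.767 to 9.63 after morphine plus 2 weeks (median 5.63). Its 6 highest libraries, above a gap of 0.96 on the log2 CPM scale, were numbers 6, 31, 29, 2, 23 and 25, at 49.2, 44.5, 39.8, 32.2, 19.3 and 18.7 CPM. Avp stood at 2.76 to 56.1 CPM in saline libraries (median 9.24), at 1.81 to 83.01 after chronic morphine (median 12.9), at 2.33 to 119.2 after morphine plus 24 h (median 7.48) and at 0.767 to 19.5 after morphine plus 2 weeks (median 9.82). Its 5 highest were numbers 23, 25, 31, 6 and 22, at 119.2, 83.01, 72.8, 56.1 and 53.98 CPM. The groups overlap for both genes, and 4 of the 5 highest Avp libraries (6, 22, 23 and 25) were also among the 5 highest for Pmch and Hcrt, whereas number 31 held 28 Pmch and 2 Hcrt reads.

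Oxt and Avp gave r = 0.67 over the 32 NAc libraries (adjusted permutation p = 0.000186) and rho = 0.66 (adjusted p = 0.000465), and r = 0.72 without numbers 3 and 28. Without numbers 6 and 25 it was 0.62 (adjusted permutation p = 0.00093). Their balance varied: per 100 Avp reads there were 87.7 Oxt reads (exact 95% interval 81.8 to 94.04) in number 6, 61.1 (57.2 to 65.2) in number 31, 22.6 (20.7 to 24.6) in number 25, 16.2 (15.03 to 17.3) in number 23 and 14.1 (12.3 to 16.2) in number 22. Neither gene moved with Ttr (r = -0.13 for Oxt, adjusted permutation p = 0.637; r = -0.05 for Avp, adjusted p = 0.870), and none of the 5 libraries highest in Ttr was among the 5 highest in Pmch, Hcrt, Oxt or Avp. With Clic6 the r was -0.48 for Oxt (adjusted permutation p = 0.0111) and -0.54 for Avp (adjusted p = 0.00310). Without numbers 6 and 25 they were -0.31 (adjusted permutation p = 0.180) and -0.38 (adjusted p = 0.0867), so neither passed without those libraries.

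**Figure D5:**
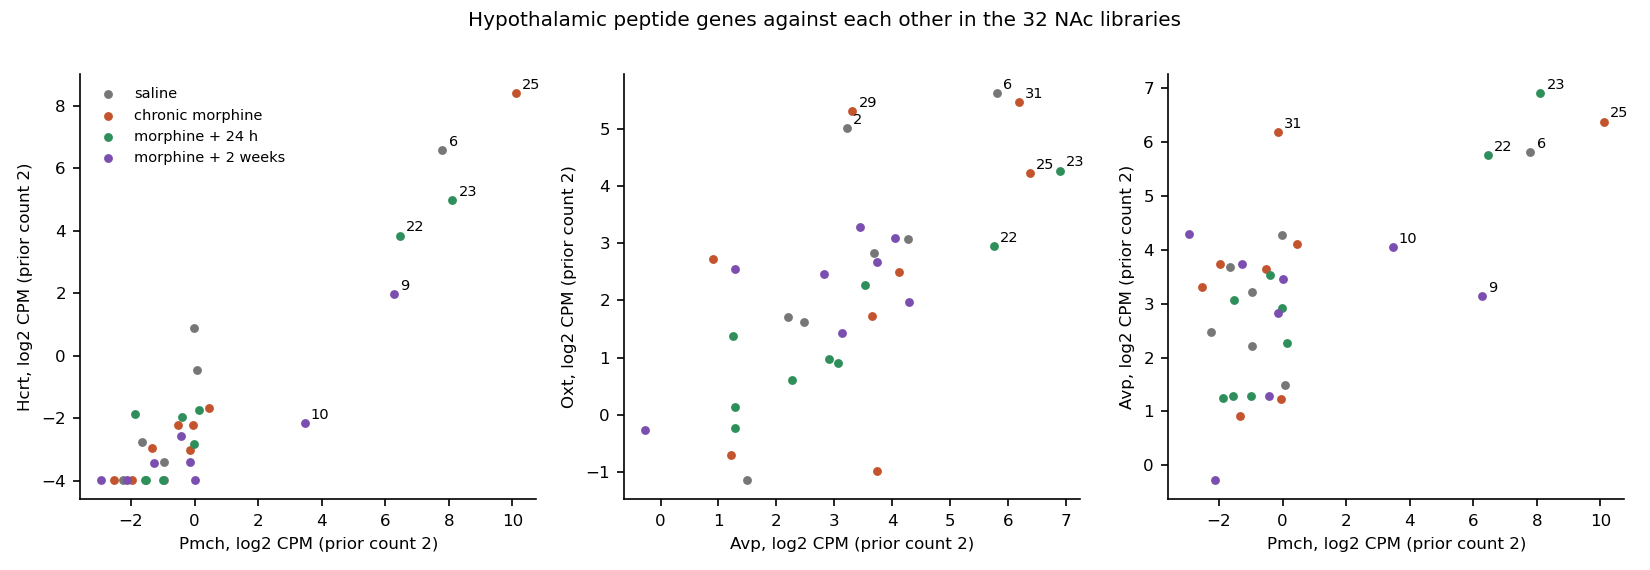
Hcrt against Pmch, Oxt against Avp and Avp against Pmch in the 32 NAc libraries, in log2 CPM with a prior count of 2, coloured by stage. Numbers 6, 9, 22, 23 and 25 are high in Pmch and Hcrt, numbers 6, 23, 25 and 31 are high in Oxt and Avp, and number 31 is low in Pmch.

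The genes most like Oxt in the NAc were the transcription factor gene Sim2 (r = 0.87, rho = 0.87), Tmx4, Vat1, Ctxn3 and Pcbd1 (each r = 0.85 or 0.86), and those most like Avp were Ublcp1 (r = 0.78), Hsd17b12, Me1, Cbln1 and Ube2v2 (r = 0.76). Of 29 further hypothalamic genes in the table, 24 passed the filter in the NAc, and their summed level ran from 316 to 934 CPM with a median of 641. It was highest in number 6 (934), where 6 of the 24 genes and 8.48% of all tested genes were highest. Numbers 2 (842) and 7 (779) came next, with 0.446 and 0.252 CPM of Pmch. Of the other libraries high in Pmch, numbers 25 (774), 23 (752) and 22 (695) were above the median. Numbers 9 (597) and 10 (537) were under that median. Number 31 came seventh (741), with 5 of the 24 and 2.92% of all tested genes highest there. Number 6 was the highest for galanin (Gal, 43.5 CPM, median 4.28), a peptide found in several hypothalamic nuclei. Number 31 was the highest for the thyrotropin-releasing hormone gene Trh (98.6 CPM, median 9.09), for the gonadotropin-releasing hormone gene Gnrh1, which did not pass the filter (4.08 CPM, median 0.0367), and for the transcription factor genes Otp (20.9 CPM, median 2.49) and Sim1 (5.45 CPM, median 0.436), which specify the neurons that make oxytocin and vasopressin. Genes of the arcuate nucleus were low: Agrp stood at 0.611 CPM or less in every NAc library, and Pomc at 0.930 to 3.40 CPM, highest in number 25. Pituitary genes were at or near 0 in every library, with a summed level of at most 0.692 CPM in the NAc and none of 8 past the filter. Genes of the thalamus and midbrain summed to 455 CPM in number 6, 383 in number 23 and 363 in number 25, the highest 3 of 32, against a median of 166.4. Genes of the septum and basal forebrain ranked 27th, 29th and 32nd of 32 there. The part of neighbouring tissue in these levels was not tested.

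The test across all genes compared the regions with edgeR's quasi-likelihood model over 62 libraries. It called 66.2% of 19266 genes different between NAc and PFC at an adjusted p under 0.05, and 8 of the 9 members, all of them higher in the NAc. A call was therefore common for any gene. Kcne2, Hcrt, Oxt and Avp were under the low-count filter in the PFC alone and entered the joint fit through the NAc libraries. A higher level in the NAc was thus close to fixed beforehand for them, and their calls are no independent evidence. Among the choroid plexus genes the log2 difference (NAc minus PFC) was 2.64 ± 0.53 (SE) for Ttr, 1.05 ± 0.26 for Kl, 4.08 ± 0.37 for Clic6 and 2.76 ± 0.72 for Kcne2, with adjusted p from 3.24e-14 to 0.000802. Folr1 did not pass, at 1.03 ± 0.59 (adjusted p = 0.119). Among the peptide genes the difference was 6.70 ± 1.02 for Pmch, 5.81 ± 1.74 for Hcrt, 8.76 ± 0.68 for Oxt and 7.66 ± 0.55 for Avp, with adjusted p from 5.18e-18 to 0.00315. The median log2 difference of all tested genes was 0.07.

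PFC number 31 weighs on the choroid plexus values of that comparison. Without it, Folr1 passed at 1.75 (adjusted p = 0.00275), Ttr stood at 3.61, Kl at 1.43, Clic6 at 4.70 and Kcne2 at 4.03. Folr1 also passed, at 1.35 (adjusted p = 0.0498), without PFC number 13. Ttr stood at 3.23 without PFC number 3, and Kcne2 at 3.34 without PFC number 7. Pmch stood at 5.59 without NAc number 25 and 5.87 without NAc number 6, and Hcrt at 4.63 and 5.16. Hcrt did not pass without NAc number 3 (5.36, adjusted p = 0.220) or without NAc number 11 (5.62, adjusted p = 0.229), 2 libraries with 24 and 4 Hcrt reads. Without the 6 NAc libraries high in Pmch, the difference was 3.21 for Pmch, 2.46 for Hcrt, 8.12 for Oxt and 6.87 for Avp, and the same number of members, 8, passed.

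No member passed in a comparison of a morphine stage with saline. In the PFC, 5 members were tested (Ttr, Folr1, Kl, Clic6 and Pmch, the others being under the low-count filter), and 0 passed in edgeR's test after chronic morphine, where 0.417% of 17966 genes did, 0 after morphine plus 24 h (0.0779%) and 0 after morphine plus 2 weeks (0.00557%). In the NAc all 9 were tested, and 0 passed after chronic morphine, where 1.69% of 18382 genes did, 0 after morphine plus 24 h (0.163%) and 0 after morphine plus 2 weeks (0.00544%). At an unadjusted p under 0.05 there was 1 member after chronic morphine in the PFC and 1 after morphine plus 24 h in the NAc, and 0 in the other 4. Over all genes, 1422 of 17966 stood under that p in the former comparison and 2218 of 18382 in the latter. A single member under it is therefore no result about the members. DESeq2 also called 0 in each comparison of a stage with saline, and in the PFC it gave no p for Ttr, Kl and Clic6.

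The member with the unadjusted p in the PFC was Clic6, with a log2 difference of 2.23 ± 0.996 between chronic morphine and saline (p = 0.0332, adjusted p = 0.577, edgeR). Beside it Ttr stood at 1.75 ± 1.22, Folr1 at 2.04 ± 1.40 and Kl at 1.45 ± 0.71, none of which passed. All 4 values turned negative without PFC number 31: -0.22 for Clic6, -2.10 for Ttr, -0.81 for Folr1 and -0.023 for Kl. The member in the NAc was Oxt, at -1.93 ± 0.83 for morphine plus 24 h against saline (p = 0.0277, adjusted p = 0.350, edgeR), with 7 of the 9 libraries of that stage at 4.79 CPM or less and overlap between the groups. Leaving out NAc libraries in turn moved this Oxt difference between -2.39 and -0.50, and it passed in none of these fits. Pmch and Hcrt, with their few high libraries, had standard errors of 1.70 to 1.79 and 1.98 to 2.51 in the 3 NAc comparisons, so that only differences of several log2 units could have been seen for them.

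Between the sexes 0 members passed in the PFC, where 0.0334% of genes were called, and 0 in the NAc (0.0598%). An unadjusted p under 0.05 was found for Pmch in the PFC, where females stood 2.13 ± 0.80 above males on the log2 scale (p = 0.0131, adjusted p = 0.946, edgeR), from 88 reads in all 30 libraries. It was also found for Folr1 in the NAc, 1.19 ± 0.56 higher in females (p = 0.0433, adjusted p = 0.918, edgeR). Over all genes, 815 of 17966 in the PFC and 880 of 18382 in the NAc stood under that p between the sexes. The stage differences were not called to depend on region for any of the 9 members, while 0.0363% of all genes were called. Unadjusted p under 0.05 were found for Ttr (p = 0.0401) and Clic6 (p = 0.0315), each with an adjusted p of 0.986 in edgeR, and for 921 of all 19266 genes.

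Genes that act with the members were taken from lists of their receptors, carriers and channel partners. In the NAc against PFC comparison, in which 66.2% of all genes were called, 2 of 3 tested receptors for melanin-concentrating hormone and orexins were higher in the NAc and 0 lower: Mchr1 at 0.76 ± 0.13 and Hcrtr2 at 0.78 ± 0.17, with Hcrtr1 at 0.04 ± 0.25. Of the oxytocin and vasopressin receptors and their enzymes, 4 of 4 tested were higher: the vasopressin receptor gene Avpr1a at 2.96 ± 0.36, the oxytocin receptor gene Oxtr at 0.69 ± 0.15, Cd38 at 0.85 ± 0.18 and Lnpep, which degrades these peptides, at 0.42 ± 0.14. Of a list drawn up for thyroid hormone and retinoid handling, 3 of 9 tested were higher and 5 lower. One of the lower genes, Thbd (-2.13 ± 0.11), encodes thrombomodulin, a protein of blood vessel walls, and is not such a gene. Dio3, which inactivates thyroid hormone, was higher at 4.72 ± 0.34, and Dio2, which activates it, lower at -1.51 ± 0.13. For folate handling 2 of 7 were higher and 1 lower, with the reduced folate carrier gene Slc19a1 at -0.41 ± 0.06 and Folh1 at 0.72 ± 0.13. Of the klotho and fibroblast growth factor receptor genes 3 of 7 were higher and 1 lower. Among the potassium channel partners of the Kcne family 3 of 9 were higher and 3 lower, among them Slc5a3, the inositol transporter that associates with these channels, at 1.27 ± 0.08. Of the other Clic genes 0 of 4 were higher and 2 lower. In the 8 comparisons of stages and sexes, no gene of these lists or of the tissue marker lists was called.

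Of the further choroid plexus genes, 13 of 29 tested were higher and 6 lower in the NAc, with a median log2 difference of 0.62. Among all 19266 tested genes, 66.2% were called, 7028 higher and 5727 lower, so this count was near the share of all genes. Car12 (3.73 ± 0.26) and the prolactin receptor gene Prlr (4.23 ± 0.44) were higher, and Slc13a4 (-2.76 ± 0.23) and Igf2 (-1.31 ± 0.13) lower. Slc13a4 and Igf2 are also made by the meninges, and meningeal genes were lower in the NAc in 15 of 15 cases, with a median of -1.69. Of the further hypothalamic genes 21 of 25 were higher and 1 lower. Their median, 3.58, is the value of Hmx2, whose fitted difference has no usable error, between Six6 at 3.24 ± 0.87 and Magel2 at 4.02 ± 0.27. Some of these, such as Nkx2-1 (8.43 ± 0.26), are also expressed by neurons of the basal forebrain. Of the 29 further hypothalamic genes in the table, 14 passed the filter in the PFC alone and 24 in the NAc alone. Some thus entered the comparison only through the region where they are high.

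The levels of 4 choroid plexus genes in same-numbered libraries of both regions were set against each other. Over the 30 numbers present in both, the log2 CPM of a gene in the PFC and in the NAc gave r = -0.03 for Ttr, 0.14 for Folr1, -0.06 for Kl and 0.25 for Clic6, with adjusted permutation p of 0.695 to 0.882 and rho of 0.05 to 0.21. The NAc library with the number of the extreme PFC library, 31, stood at 24.2 CPM for Ttr, under the NAc median of 41.3. The peptide genes, with few PFC reads, were not put to this test. Of the 6 PFC libraries highest in Pmch (numbers 1, 18, 19, 22, 23 and 25, with 8 to 13 reads), 3 (22, 23 and 25) have the number of one of the 6 highest NAc libraries. Avp had its most PFC reads in number 25 (16) and number 22 (12), whose NAc libraries were among the 5 highest in Avp. Whether this exceeds chance was not tested.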

How the data were processed

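Raw read counts per gene, as the authors deposited them, were taken from the mouse table. The submitters' processing notes name FastQC, cutadapt, STAR, RSEM, Trimmomatic and HISAT2 and the build GRCm38, without roles or versions; the counter and its strand setting are not given in the sources used here. Of the counts, 22.0% (median over libraries) stood in rows that name no gene and were left out of library sizes and tests. Gene-name rows with fewer reads than edgeR's filterByExpr keeps were not tested. Samples were grouped by region, stage and sex from the labels. edgeR 4.0.16 (TMM normalization, quasi-likelihood test, R 4.3.3) was fitted to all genes of each region with a term for each stage and sex, and contrasts were averaged over the sexes; regions were compared in a joint fit over 62 libraries. P-values were adjusted by Benjamini and Hochberg over all genes tested, and a call is an adjusted p under 0.05. CPM values and correlations used log2 CPM with a prior count of 2. Correlations were tested with 100000 permutations. A count of 0 allows up to 3 reads, which at the median depth is 0.1 CPM in the PFC and 0.0933 CPM in the NAc. The fits were tested on simulated data. The members, the marker lists and the lists of related genes were chosen with earlier results of these data known. The most alike genes are the 5 with the highest Pearson r among the genes tested in that region, and list genes named beside a test are among the 4 of their list with the smallest adjusted p of those called, except Hcrtr1, Hmx2, Six6 and Magel2; these, and marker genes given for single libraries, were chosen after their values were seen. Some genes that met these rules are not reported here. DESeq2 1.42.0, other scaling factors, no filter, a robust fit, leaving out each library, and a replicate block were tried as alternatives. Same-numbered libraries were not treated as pairs, because the labels do not say what a number marks.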

Additional observations from a re-analysis of the deposited data

Results flagged for a closer look

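Within each of the 72 sets of libraries given by gene, region and stage, the highest and the lowest library were compared with the others on the log2 CPM scale by Dixon's ratio, and 21 stood apart, 17 of them as the highest. Chance alone flags about 1 group in 20 when the groups are independent. These sets share libraries and hold genes that vary together, so the count of 21 cannot be weighed against that share. Where all other libraries of a set had no read, the ratio is 1 by construction.

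Among the choroid plexus genes, PFC number 31 stood above the other chronic morphine libraries for Ttr (11.617), Folr1 (5.081), Kl (7.163), Clic6 (6.752) and Kcne2 (4.517). PFC number 3 stood above the other saline libraries for Kl (3.62), and NAc number 20 above the other morphine plus 24 h libraries for Kcne2 (2.172). Those that stood below were PFC number 10 for Ttr and Kl (each -3.963, a count of 0 in the shallowest library), PFC number 21 for Ttr (-0.938) and NAc number 6 for Clic6 (3.002). A count of 0 in PFC number 10 allows up to 0.579 CPM, under the PFC medians of 3.70 for Ttr and 4.35 for Kl.

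Among the peptide genes, NAc number 6 stood above the other saline libraries for Pmch (7.792), NAc number 25 above the other chronic morphine libraries for Pmch (10.104) and Hcrt (8.386), and NAc number 9 above the other morphine plus 2 weeks libraries for Hcrt (1.978). In the PFC the values that stood apart were those of a few reads: number 25 for Pmch (-1.563, 8 reads) and Hcrt (-2.312, 4 reads), number 5 (-1.908) and number 14 (-2.712) for Hcrt, and numbers 2 (-2.149) and 31 (-2.362) for Oxt. The number 25 was thus the highest of its stage for Pmch and Hcrt in both regions, at 38181 Pmch reads in the NAc and 8 in the PFC.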

How the results depend on the processing

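The counts of members called stayed at 0 in every stage, sex and interaction test under each alternative that could be run, and the count between regions ranged from 7 to 9. The values of 7 came without NAc number 3 or 11, where Hcrt was lost, and those of 9 with Folr1 called. With the number as a replicate block, 9 members instead of 8 were called between regions, Folr1 being the one gained (1.62, adjusted p = 0.0084), and 0 in the interaction; in these tests of regions the block moved no other call. Of 30 pairs of same-numbered libraries, 5 had deviations that correlated above 0.1 (lowest 0.0077, median 0.068, highest 0.216). Left out in turn, PFC libraries moved the chronic morphine differences from -2.10 to 4.12 for Ttr, from -0.81 to 4.15 for Folr1, from -0.023 to 1.83 for Kl and from -0.22 to 3.20 for Clic6, the lowest of each without number 31. Without PFC numbers 3 and 31, which were left out after their values were seen, they stood at 0.28, -0.084, 0.36 and 0.75. Without the 2 libraries farthest from the median, 1 of 6 pairs of genes called in the PFC and 5 of 9 in the NAc were still past the threshold, and the correlation of same-numbered libraries was 0.12 for Ttr and 0.0044 for Kl. Without NAc numbers 6 and 25, left out after their values were seen, 7 of those 9 NAc pairs were past the threshold. Over all alternatives, 906 fold changes of single genes kept their direction and call, 4 gained a call, 2 lost it and 5 changed sign, the negative chronic morphine differences above. Fits that kept the direction but gave no adjusted p are counted among the 906. Those of Ttr, Kl and Clic6 in the PFC with DESeq2 are of this kind. Depth limits Folr1 and Kcne2 in the PFC, where 13 and 18 of 30 libraries had no read.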

Other observations

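Relative to all genes tested, the members varied strongly between libraries. In the NAc, 99.96% of 18382 tested genes had a smaller standard deviation of log2 CPM than Pmch, 99.95% than Hcrt, 99.8% than Oxt, 99.7% than Avp, 99.5% than Ttr and Folr1 and 98.2% than Kcne2, but 70.8% than Clic6 and 68.1% than Kl. In the PFC the shares were 99.9% for Ttr, 99.7% for Folr1, 99.5% for Clic6, 98.5% for Kl and 75.1% for Pmch.

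Another PFC library, number 25 of the chronic morphine females, was the highest of the PFC for genes of the thalamus and midbrain, which summed to 400 CPM against 164.4 in the next library and a median of 85.5. Its level of Slc17a6, the glutamate transporter of thalamic neurons, was 228 CPM, with 117.4 in PFC number 9 next, and that of the thalamic transcription factor gene Tcf7l2 was 49.9 CPM, with 9.90 in PFC number 9 next. This library also held the most Avp reads of the PFC (16). In the NAc, number 24 summed to 767 CPM for cortical neuron genes, against 231 in the next library, and held 1.82 CPM of Oxt and no Hcrt read.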
